A study of Homo sapiens with 8 samples.

Results

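Control cells of HUG1N, a gastric cancer line, were compared with control cells of Caco-2, a colorectal adenocarcinoma line, in a series on the transcription factor GATA6 in gastric cancer. The comparison took 4 of the series' 8 arrays, the 2 titled as HUG1N controls and the 2 titled as Caco-2 controls, and was made over all genes with 1 probe set a gene, the brightest over the 8 arrays. The labels also write the gastric line as HuG-1. The other 4 arrays, 2 a line, held cells infected with a short hairpin RNA (shRNA) against GATA6 and selected with puromycin, and they served here as a second set in which to see the same line difference. All 8 samples carry 1 and the same treatment text, so whether the control cells got an empty vector, another hairpin or nothing is unstated. Separate cultures for the 2 replicates of a group are not stated either, so p-values measure only spread between arrays within the groups, pooled over all 4 groups in the fit, and this spread may be technical. Cells were grown in recommended media, RNA was extracted with Trizol, and targets for Affymetrix U133A 2.0 arrays were prepared with a kit that primes from the 3′ end. Each group stands for 1 established cell line, so line, growth medium and any handling that differed by line cannot be told apart.

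The epithelium of the stomach and that of the intestine arise from the same endoderm tube and part under different transcription factors: the CDX factors drive the intestinal fate, while GATA and FOXA factors act along much of the gut and in the liver. Gastric pit and gland cells make secreted mucins, trefoil peptides and pepsinogens, and enterocytes make brush border hydrolases, nutrient transporters and lipoproteins. Caco-2 cells are known to take on enterocyte features in culture that resemble fetal intestine, including the secretion of apolipoproteins.

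Values are log2 expression values made by the authors, and differences are HUG1N minus Caco-2, so that a negative difference is higher in Caco-2. Of 11963 genes, 7696 were tested, those over log2 4 in at least 2 of the 8 arrays. The lowest value on any array was 2.08. Each group has 2 arrays, whose values are printed in the order of their labels, and where pairs are set against each other the Caco-2 pair comes first. Where neither array of a line exceeded log2 4, the fold is given as at least the brighter mean over log2 4, and where neither line exceeded it no fold is given. In limma's fit, 6032 of 7696 tested genes (78.4%) were called at an adjusted p under 0.05, 2856 higher in HUG1N (37.1%) and 3176 higher in Caco-2 (41.3%). These percentages are the background for every count of list members. With a fold of at least 2 in addition, 1697 genes (22.1%) were higher in HUG1N and 1837 (23.9%) in Caco-2. The 2 arrays of HUG1N both lay above the 2 of Caco-2 for 43.0% of tested genes and both below for 47.7%, so lack of overlap is common in these data. At least 16-fold differences were called for 292 genes higher in HUG1N and 312 higher in Caco-2. In all, 369 genes exceeded log2 4 in both HUG1N control arrays and in neither Caco-2 control array, and 436 did the reverse. Centring each array on its median moved the median difference over all genes from -0.05 to 0.08, a shift of 0.13, so differences under about that size have no fixed direction.

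The 2 arrays of a control group correlated across genes at r = 0.997 in Caco-2 and 0.996 in HUG1N, and arrays of different lines at 0.697 to 0.702 among the controls. The difference between 3′ and 5′ ACTB probe sets, a sign of RNA length, was 1.91 and 1.94 log2 units in Caco-2 and 2.68 and 2.35 in HUG1N, and for GAPDH it was 0.15 and 0.17 against 0.37 and 0.44. It therefore moved with the line in every comparison of the controls, and its part in the results was not tested. Array medians ran from 4.81 to 4.95 in the controls, and the mean of the hybridisation controls from 12.45 to 12.87.

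**Figure D1:**
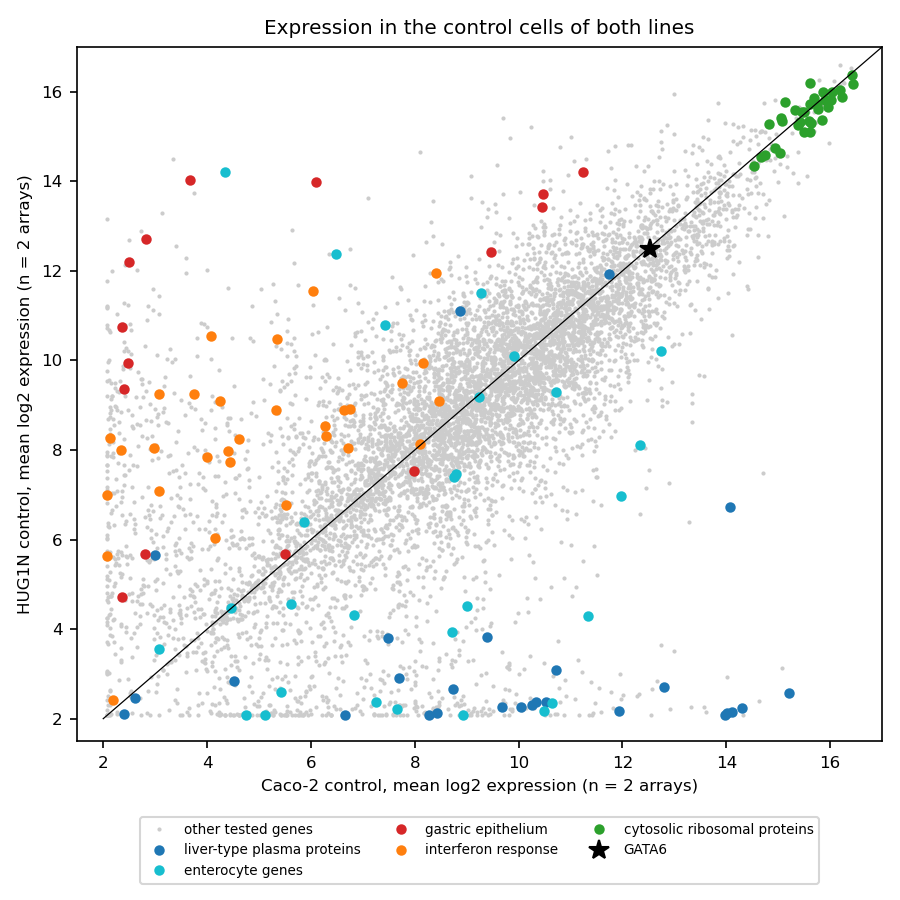
Mean log2 expression in Caco-2 control (x axis) and HUG1N control (y axis) for the 7696 tested genes, 2 arrays a mean, with 5 gene lists coloured and GATA6 as a star; the line marks equal levels. GATA6 lies on the line near 12.5 in both, plasma protein genes lie far to the right, and gastric and interferon genes lie above the line.

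GATA6, the factor that the series targets, was high in both lines and was not called between them. Its log2 values were 12.63 and 12.45 in Caco-2 control and 12.54 and 12.45 in HUG1N control, and the arrays of the lines overlapped. The difference was -0.04 (SE 0.10, 95% interval -0.30 to 0.21, limma adjusted p = 0.712). Over leave-one-array-out fits it ran from -0.14 to 0.05, with no call. In the arrays labelled shRNA the values were 12.23 and 12.02 in Caco-2 and 12.26 and 12.22 in HUG1N, so all arrays labelled shRNA lay below all control arrays, by less than 1 log2 unit. A single probe set measured GATA6, at an unknown distance from the hairpin's target.

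The factors around GATA6 differed between the lines. Of 42 gut endoderm transcription factors listed, 31 had a probe set and 22 were tested, 12 higher in HUG1N, 6 higher in Caco-2 and 4 not called, with a median difference of 0.62 against -0.05 over all tested genes. The other 11 were not analysed here. GATA4, a factor of the same subfamily, was 3.75 and 3.85 in Caco-2 and 6.67 and 6.40 in HUG1N, and was at least 5.79-fold higher in HUG1N (difference 2.74, SE 0.10, limma adjusted p = 1.48e-06). CDX2, the main intestinal fate factor, was 6.67 and 6.48 in Caco-2 and 3.29 and 3.50 in HUG1N, at least 5.96-fold higher in Caco-2 (limma adjusted p = 1.41e-06). The pair thus ran opposite ways, each above log2 4 in 1 line only. CDX1, its relative, ran the other way from CDX2, with 4.53 and 4.53 in Caco-2 and 7.18 and 7.58 in HUG1N, 7.21-fold higher in HUG1N (SE 0.28 in log2 units, limma adjusted p = 0.000105).

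Among epithelial factors of the ETS and Krüppel-like families in the gut factor list, EHF, ELF3 and KLF4 were higher in HUG1N and KLF5 was not called. EHF, an ETS factor of gland and barrier epithelia, was 2.29 and 2.47 in Caco-2 and 9.86 and 9.87 in HUG1N, at least 58.3-fold apart. ELF3, from the same family, was 9.67 and 9.63 in Caco-2 and 12.82 and 12.77 in HUG1N (8.83-fold). KLF4, which is expressed in differentiated gut surface cells, was 8.55 and 8.50 in Caco-2 and 12.68 and 12.52 in HUG1N (16.9-fold), whereas KLF5, a factor of proliferating gut epithelium, was 12.19 and 12.12 against 12.51 and 12.57 and was not called (difference 0.39, limma adjusted p = 0.0651). A dimmer KLF5 probe set was 10.90 and 10.95 in Caco-2 and 11.66 and 11.89 in HUG1N, a larger difference of 0.85 in the same direction. CREB3L1, a membrane-bound factor of secretory cells, was 22.5-fold higher in HUG1N, and SPDEF, a factor of goblet and antral mucous cells, was 7.9-fold higher with values of 4.18 and 2.97 against 5.74 and 7.37. The SPDEF difference of 2.98 ran from 2.17 without HUG1N control array 2 to 3.80 without array 1, and was 3.59 and 2.38 without Caco-2 control array 1 and 2. On the Caco-2 side, FOXA1, a pioneer factor of endoderm, was 9.97 and 9.79 in Caco-2 and 6.18 and 5.90 in HUG1N (14.3-fold higher in Caco-2). Its relative FOXA2 differed the other way by 0.68 (SE 0.09, limma adjusted p = 0.000491). NR5A2, a nuclear receptor of liver, pancreas and crypt, was 9.97-fold higher in Caco-2, and MAF, a large leucine zipper factor, was 8.47 and 8.47 there and 2.33 and 2.43 in HUG1N. SOX9, which marks progenitors, was 1.66-fold higher in Caco-2 by the probe set used. Another SOX9 probe set was 11.02 and 10.93 in Caco-2 and 10.93 and 10.76 in HUG1N, a difference of only -0.13. The size of the SOX9 difference therefore depends on the probe set. HHEX, MNX1 and GATA6 were not called, with differences of 0.06, -0.07 and -0.04. PDX1, SOX2, BARX1, ONECUT1, ISL1 and HNF4G did not exceed log2 4 in any control array, so the stomach factors SOX2 and BARX1 were not detected in the gastric line.

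HOX genes, which mark position along the body axis, were measured for the B, C and D clusters and HOXA2. Of 24 with a probe set, 10 were tested, 4 higher in HUG1N and 3 higher in Caco-2. HOXC10 was 4.79 and 4.79 in Caco-2 and 8.28 and 8.17 in HUG1N, 10.8-fold higher in HUG1N (SE 0.11 in log2 units, limma adjusted p = 7.31e-07). HOXC13 (3.07-fold) and HOXC11 (2.59-fold) were also higher there, and so was HOXB5, at 2.85 and 2.85 in Caco-2 and 4.46 and 4.26 in HUG1N. HOXC6, a more anterior member of the same cluster, was 10.61 and 10.70 in Caco-2 and 8.44 and 8.71 in HUG1N, 4.23-fold higher in Caco-2, and HOXB7 was 2.07-fold higher in Caco-2. HOXC5 was also called higher in Caco-2, a call lost with values floored at log2 4 (difference -0.15, limma adjusted p = 0.493). HOXC4, HOXB6 and HOXB9 were not called, with differences of -0.34, -0.83 and -0.38. No HOXD gene exceeded log2 4 in a control array.

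Genes of the gastric epithelium were high in HUG1N. Of 30 listed, 25 had a probe set and 15 were tested, 13 of them higher in HUG1N, 1 higher in Caco-2 and 1 not called, with a median difference of 3.25. The background is 37.1% of tested genes. In Caco-2, 8 of the 15 did not exceed log2 4 in a control array. A gene that passes the filter through 1 line alone is bound to be higher in that line, here and in every list. The count therefore describes the list and is no test of it. In RNA from a whole culture, here and in every list, fewer cells of a type and less RNA per cell cannot be told apart. CTSE, the aspartic protease cathepsin E of gastric surface cells, was 2.83 and 2.81 in Caco-2 and 12.74 and 12.68 in HUG1N, a difference of 9.89 (SE 0.09, limma adjusted p = 7.08e-09) and at least 420-fold. ANXA10, an annexin of gastric epithelium, was 2.20 and 2.78 in Caco-2 and 12.10 and 12.27 in HUG1N (at least 292-fold). CLDN18, the tight junction protein with a stomach form, was 2.38 and 2.34 against 10.57 and 10.93 (at least 108-fold). The surface mucin MUC5AC was 2.49 and 2.31 in Caco-2 and 9.24 and 9.47 in HUG1N (at least 40.9-fold), whereas MUC6, the mucin of gastric glands, was 5.47 and 5.55 against 5.55 and 5.79 and was not called (difference 0.16, limma adjusted p = 0.566). For CTSE, ANXA10, CLDN18 and MUC5AC both Caco-2 arrays lay under log2 4.

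Other gastric genes were also higher in HUG1N, and the trefoil, lysozyme and MUC1 genes were above log2 4 in both lines. The trefoil peptide TFF1 was 11.24 and 11.25 in Caco-2 and 14.19 and 14.25 in HUG1N (7.85-fold), and TFF2 was 10.34 and 10.55 against 13.42 and 13.46 (7.93-fold). Lysozyme, LYZ, was 9.68 and 9.27 against 12.45 and 12.39 (7.7-fold). MUC1, a membrane mucin, was 6.79 and 5.41 in Caco-2 and 13.93 and 14.06 in HUG1N (238-fold; the difference of 7.89 was 8.58 without Caco-2 control array 1 and 7.20 without array 2), and PSCA, a surface antigen of stomach and prostate, was 2.75 and 2.20 against 9.94 and 9.94. AKR1B10, an aldo-keto reductase, was 3.78 and 3.55 in Caco-2 and 13.95 and 14.10 in HUG1N (at least 1040-fold). PGC, the pepsinogen of gastric glands, was low but above log2 4 in HUG1N alone, at 2.78 and 2.82 in Caco-2 and 5.74 and 5.61 in HUG1N. FUT2, which sets secretor status, was the exception at -0.46 (limma adjusted p = 0.0199), a call lost under several alternatives, among them leaving out either Caco-2 control array (adjusted p = 0.0637 and 0.0824) or HUG1N control array 1 (adjusted p = 0.0915). Several genes of specialised gastric cells were not detected in either line: ATP4A and ATP4B (the proton pump), CBLIF (intrinsic factor), LIPF (gastric lipase), GAST (gastrin) and the pit cell gene GKN1 did not exceed log2 4 in any control array.

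**Figure D2:**
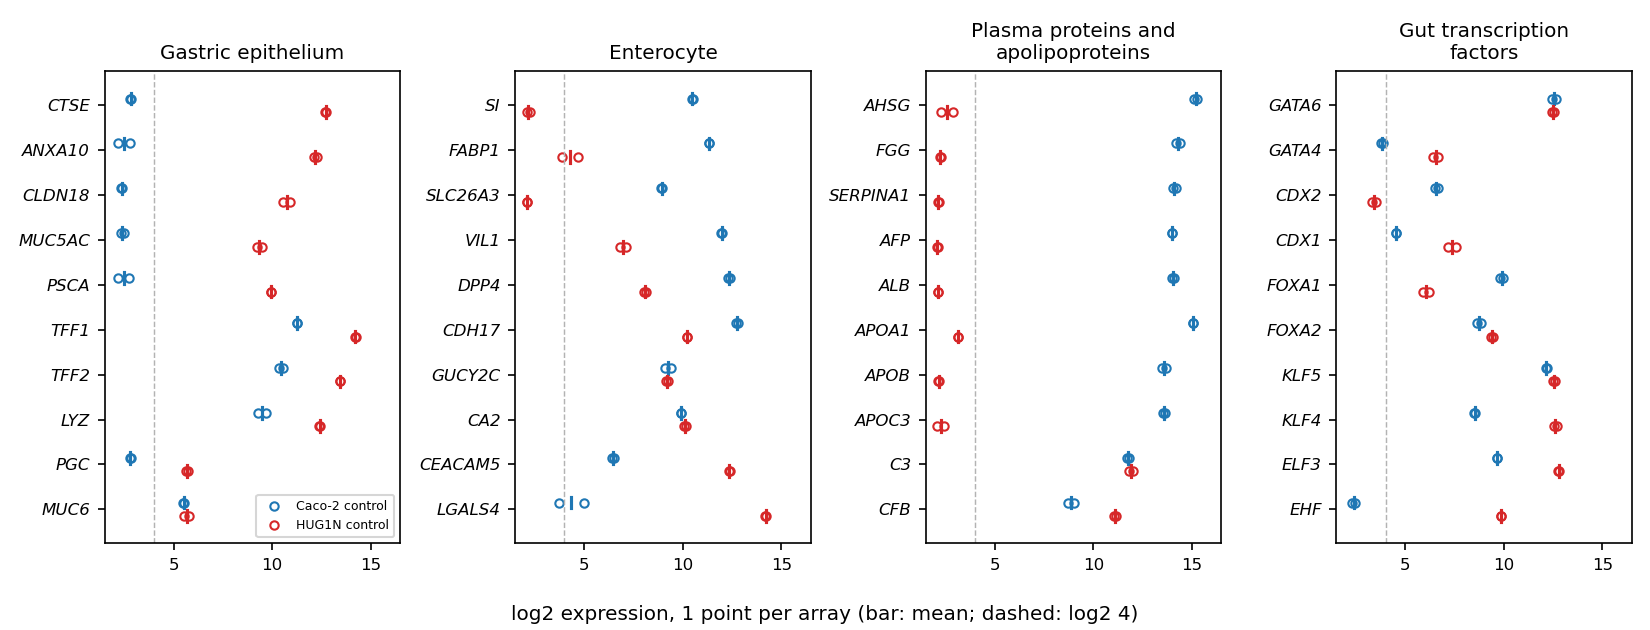
Log2 expression of 40 lineage genes in each control array of Caco-2 (blue) and HUG1N (red), 1 circle an array, with a bar at the mean of 2 arrays and a dashed line at log2 4. In most rows the arrays of a line lie close together and the lines apart: the gastric genes CTSE to PSCA are under log2 4 in Caco-2, the plasma proteins AHSG to ALB are under it in HUG1N, and GATA6 overlaps.

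Promoter sequences of a pair of gastric genes are shown because both hold the letters of a GATA site close to the gene start. They are the 160 bases before the start of CTSE and ANXA10 in RefSeq (GRCh38.p14), 5′ to 3′ along the gene, with TGATAA or its reverse complement in capitals. CTSE lies on the minus strand at chr1:206023896-206024055 and ANXA10 on the plus strand at chr4:168092377-168092536.
CTSE: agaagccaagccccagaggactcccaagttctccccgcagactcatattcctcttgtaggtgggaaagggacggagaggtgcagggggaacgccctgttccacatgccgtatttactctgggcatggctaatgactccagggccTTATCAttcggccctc
ANXA10: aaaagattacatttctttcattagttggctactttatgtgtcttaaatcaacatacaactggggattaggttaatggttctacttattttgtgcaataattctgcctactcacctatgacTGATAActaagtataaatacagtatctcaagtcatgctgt
Within 250 bases before the start, TGATAA on either strand was found for 2 of 7 tested gastric genes with a promoter in the table, against 6.89% of all 27305 promoters and 3.22% of the 6401 promoters of tested genes. The same letters stood before 4 of 22 plasma protein genes (18.2%), 3 of 31 NF-kB list genes and 2 of 25 interferon genes. The motifs and the sets were chosen after such counts had been seen, and a match is a description of letters, not a bound site.

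Enterocyte genes showed the opposite balance, with exceptions. Of 51 listed, 49 had a probe set and 28 were tested, 19 higher in Caco-2, 4 higher in HUG1N and 5 not called, with a median difference of -2.52. SI, the sucrase-isomaltase of the brush border, was 10.52 and 10.48 in Caco-2 and 2.27 and 2.08 in HUG1N, a difference of -8.32 (SE 0.17, limma adjusted p = 1.46e-07) and at least 90.2-fold. FABP1, the fatty acid binding protein of liver and proximal intestine, was 11.35 and 11.32 against 3.86 and 4.71 (132-fold). A1CF, a cofactor of APOB RNA editing, was 10.66 and 10.61 in Caco-2 and 2.37 and 2.34 in HUG1N (at least 99.4-fold). The chloride exchanger SLC26A3 was 8.95 and 8.90 against 2.08 and 2.08 (at least 30.4-fold), and VIL1, the microvillus protein villin, was 11.99 and 11.96 against 7.11 and 6.84 (32.1-fold). In each of these 5 genes all Caco-2 arrays lay above all HUG1N arrays by several log2 units.

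Other brush border and surface genes ranged from called differences to none. DPP4, a dipeptidyl peptidase, was 12.40 and 12.27 in Caco-2 and 8.06 and 8.15 in HUG1N (18.8-fold), and CDH17, the liver-intestine cadherin, was 12.81 and 12.68 against 10.20 and 10.23 (5.78-fold). The peptidase MEP1A was at least 26.4-fold, the motor MYO1A at least 12.7-fold and the peptide hormone GUCA2A at least 9.52-fold higher in Caco-2. GUCY2C, the guanylin receptor, was 9.10 and 9.39 in Caco-2 and 9.23 and 9.14 in HUG1N and was not called (difference -0.06, 95% interval -0.34 to 0.22). The carbonic anhydrase CA2 was also not called, at 0.20 (95% interval -0.19 to 0.59). The 4 members that were higher in the gastric line were LGALS4, CEACAM5, EPS8L3 and CEACAM6. LGALS4, a galectin of gut epithelium, was 3.71 and 4.97 in Caco-2 and 14.25 and 14.18 in HUG1N (939-fold; the difference of 9.87 was 9.24 without Caco-2 control array 1 and 10.51 without array 2), and the adhesion molecule CEACAM5 was 6.54 and 6.43 against 12.40 and 12.35 (59.2-fold). CEACAM6 was 4.67-fold and EPS8L3, a microvillus protein, 10.3-fold higher in HUG1N. Several defining genes of mature enterocytes and colonocytes did not exceed log2 4 in any control array, among them LCT (lactase), FABP2, SLC5A1 (the sodium-glucose transporter), ALPI, CA1, CA4, GPA33 and MS4A12, so the enterocyte label held for Caco-2 only in part.

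The 160 bases before the start of 3 enterocyte genes are shown for the same letters. FABP1 lies on the minus strand at chr2:88128063-88128222, MYO1A on the minus strand at chr12:57051199-57051358 and GUCA2A on the minus strand at chr1:42164746-42164905, and capitals again mark TGATAA on either strand.
FABP1: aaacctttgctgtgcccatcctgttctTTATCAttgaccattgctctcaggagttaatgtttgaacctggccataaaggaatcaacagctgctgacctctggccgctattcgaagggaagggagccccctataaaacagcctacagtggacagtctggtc
MYO1A: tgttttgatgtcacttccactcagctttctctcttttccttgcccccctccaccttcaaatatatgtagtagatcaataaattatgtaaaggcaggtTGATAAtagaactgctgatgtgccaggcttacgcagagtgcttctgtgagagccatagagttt
GUCA2A: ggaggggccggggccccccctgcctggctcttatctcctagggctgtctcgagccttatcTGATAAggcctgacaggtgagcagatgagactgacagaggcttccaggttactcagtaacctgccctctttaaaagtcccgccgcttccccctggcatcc
Of 21 tested enterocyte genes with a promoter, 7 held TGATAA within 250 bases (33.3%), LGALS4 among them, which was higher in HUG1N. The GATA letters thus stood before genes that were high in either line.

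Secretory cell genes of the intestine split by gene. Of 27 with a probe set, 9 were tested, 5 higher in HUG1N and 4 higher in Caco-2. SPINK1, a trypsin inhibitor, was 14.76 and 14.67 in Caco-2 and 7.38 and 7.61 in HUG1N, 149-fold higher in Caco-2 (SE 0.15 in log2 units, limma adjusted p = 1.57e-07), whereas SPINK4, a goblet cell peptide of the same family, was 4.98 and 4.67 against 10.43 and 10.55, 50.9-fold higher in HUG1N. The membrane mucin MUC4 was 3.07 and 3.07 in Caco-2 and 11.05 and 11.03 in HUG1N (at least 132-fold), FCGBP, a mucus protein, was at least 24.8-fold and MUC13 4.28-fold higher in HUG1N. AGR2, a disulfide isomerase of mucous cells, was 15.08 and 15.13 in Caco-2 and 13.13 and 13.30 in HUG1N (3.71-fold higher in Caco-2), and TFF3, the intestinal trefoil peptide, was 1.83-fold higher in Caco-2. MUC2, the main goblet cell mucin, ATOH1, the secretory fate factor, and the endocrine genes CHGA, GCG, PYY, CCK and SST did not exceed log2 4 in any control array, nor did the Paneth cell defensins DEFA5 and DEFA6.

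The largest differences in favour of Caco-2 were in secreted plasma proteins. Of 44 liver-type plasma protein genes listed, 40 had a probe set and 27 were tested, 22 higher in Caco-2, 2 higher in HUG1N and 3 not called, with a median difference of -7.33, or -5.67 with genes under log2 4 in a line set at that bound. In HUG1N, 20 of the 27 did not exceed log2 4 in a control array. AHSG, the fetal plasma protein fetuin-A, was 15.28 and 15.12 in Caco-2 and 2.28 and 2.87 in HUG1N, a difference of -12.62 (SE 0.36, limma adjusted p = 4.88e-07) and at least 2353-fold. The fibrinogen chain FGG was 14.39 and 14.20 against 2.20 and 2.29 (at least 1257-fold), and SERPINA1, alpha-1-antitrypsin, was 14.20 and 14.04 against 2.15 and 2.13 (at least 1112-fold). AFP, alpha-fetoprotein, was 13.97 and 13.998 in Caco-2 and 2.08 and 2.10 in HUG1N (at least 1013-fold), and ALB, albumin, was 14.07 and 13.97 against 2.13 and 2.13 (at least 1039-fold). The HUG1N values of these 5 genes were near the lowest value on the arrays. AGT, angiotensinogen (at least 443-fold), and TTR, the thyroxine carrier (at least 245-fold), were also among the 20 largest differences.

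Plasma protein genes did not all follow. Complement C3 was 11.79 and 11.71 in Caco-2 and 11.83 and 12.03 in HUG1N and was not called (difference 0.18, limma adjusted p = 0.103). Complement factor B, CFB, was 9.04 and 8.70 in Caco-2 and 11.15 and 11.07 in HUG1N, 4.72-fold higher in HUG1N. PROC, the anticoagulant protein C, was at least 3.16-fold higher in HUG1N. The other 13 members with a probe set, such as HPX, ITIH1, PLG and CP, did not exceed log2 4 in 2 of the 8 arrays and were not tested.

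Apolipoproteins and lipid absorption genes leaned the same way. Of 31 with a probe set, 26 were tested, 19 higher in Caco-2 and 5 higher in HUG1N, with a median difference of -3.96. APOA1, the main protein of high density lipoprotein, was 15.08 and 15.05 in Caco-2 and 3.13 and 3.13 in HUG1N (at least 2144-fold), and APOA2 was 14.30 and 14.33 against 2.08 and 2.08 (at least 1272-fold). APOB, the scaffold of chylomicrons and low density lipoprotein, was 13.70 and 13.50 in Caco-2 and 2.14 and 2.16 in HUG1N, a difference of -11.45 (SE 0.10, limma adjusted p = 7.79e-09) and at least 778-fold. APOC3 was at least 758-fold and APOH, also called beta-2-glycoprotein, at least 1030-fold higher in Caco-2. The members higher in HUG1N were enzymes and regulators rather than apolipoproteins: ANGPTL4, a lipase inhibitor, was 2.66 and 2.78 against 8.78 and 8.34 (at least 23.6-fold), ACSL5, an acyl-CoA synthetase, was 6.41-fold, AGPAT2 3.56-fold, ACSL1 3.44-fold and the carboxylesterase CES2 1.86-fold higher. CES1, the liver-type carboxylesterase, ran the other way from CES2, at 12.67 and 12.68 in Caco-2 and 3.08 and 2.58 in HUG1N.

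Fetal and imprinted genes separated the lines gene by gene, with 6 of 13 tested higher in HUG1N and 7 higher in Caco-2. PEG10, an imprinted gene of retrotransposon origin, was 12.89 and 12.93 in Caco-2 and 2.36 and 2.08 in HUG1N (at least 480-fold), and its neighbour SGCE was 10.82 and 10.998 against 2.80 and 2.20 (at least 120-fold). The oncofetal proteoglycan GPC3 was 12.91 and 13.08 in Caco-2 and 3.36 and 3.68 in HUG1N (at least 510-fold), and the imprinted MEST was 15.2-fold higher in Caco-2. PLAGL1, an imprinted zinc finger gene, was 2.08 and 2.08 in Caco-2 and 7.68 and 7.66 in HUG1N (at least 12.7-fold), and CDKN1C (5.49-fold), PHLDA2 (5.03-fold) and HMGA1 (4.5-fold) were also higher in HUG1N. Of 22 cancer-testis antigen genes with a probe set, 19 had no control array over log2 4. MAGEA6 was 2.08 and 2.08 in Caco-2 and 7.29 and 6.56 in HUG1N, where signal from near-identical family members cannot be told apart, and the helicase gene DDX43 was at least 24.7-fold higher in HUG1N.

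Wnt target and stem cell genes were mixed, 6 of 18 tested higher in HUG1N and 9 higher in Caco-2. The stem cell receptor LGR5 was 9.01 and 9.06 in Caco-2 and 2.21 and 2.18 in HUG1N (at least 32.8-fold), and the Wnt feedback genes DKK1, at 13.28 and 13.37 against 2.43 and 2.10 (at least 640-fold), and RNF43 (5.81-fold) were also higher in Caco-2. PROM1, a progenitor surface protein, was 6.18-fold and the receptor FZD7 4.68-fold higher in Caco-2. CD44, a hyaluronan receptor, was 9.63 and 9.56 in Caco-2 and 14.36 and 14.37 in HUG1N, 27.4-fold higher in HUG1N (limma adjusted p = 1.02e-07), and BMP4 was 7.79-fold and TCF7L2 2.27-fold higher there.

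**Figure D3:**
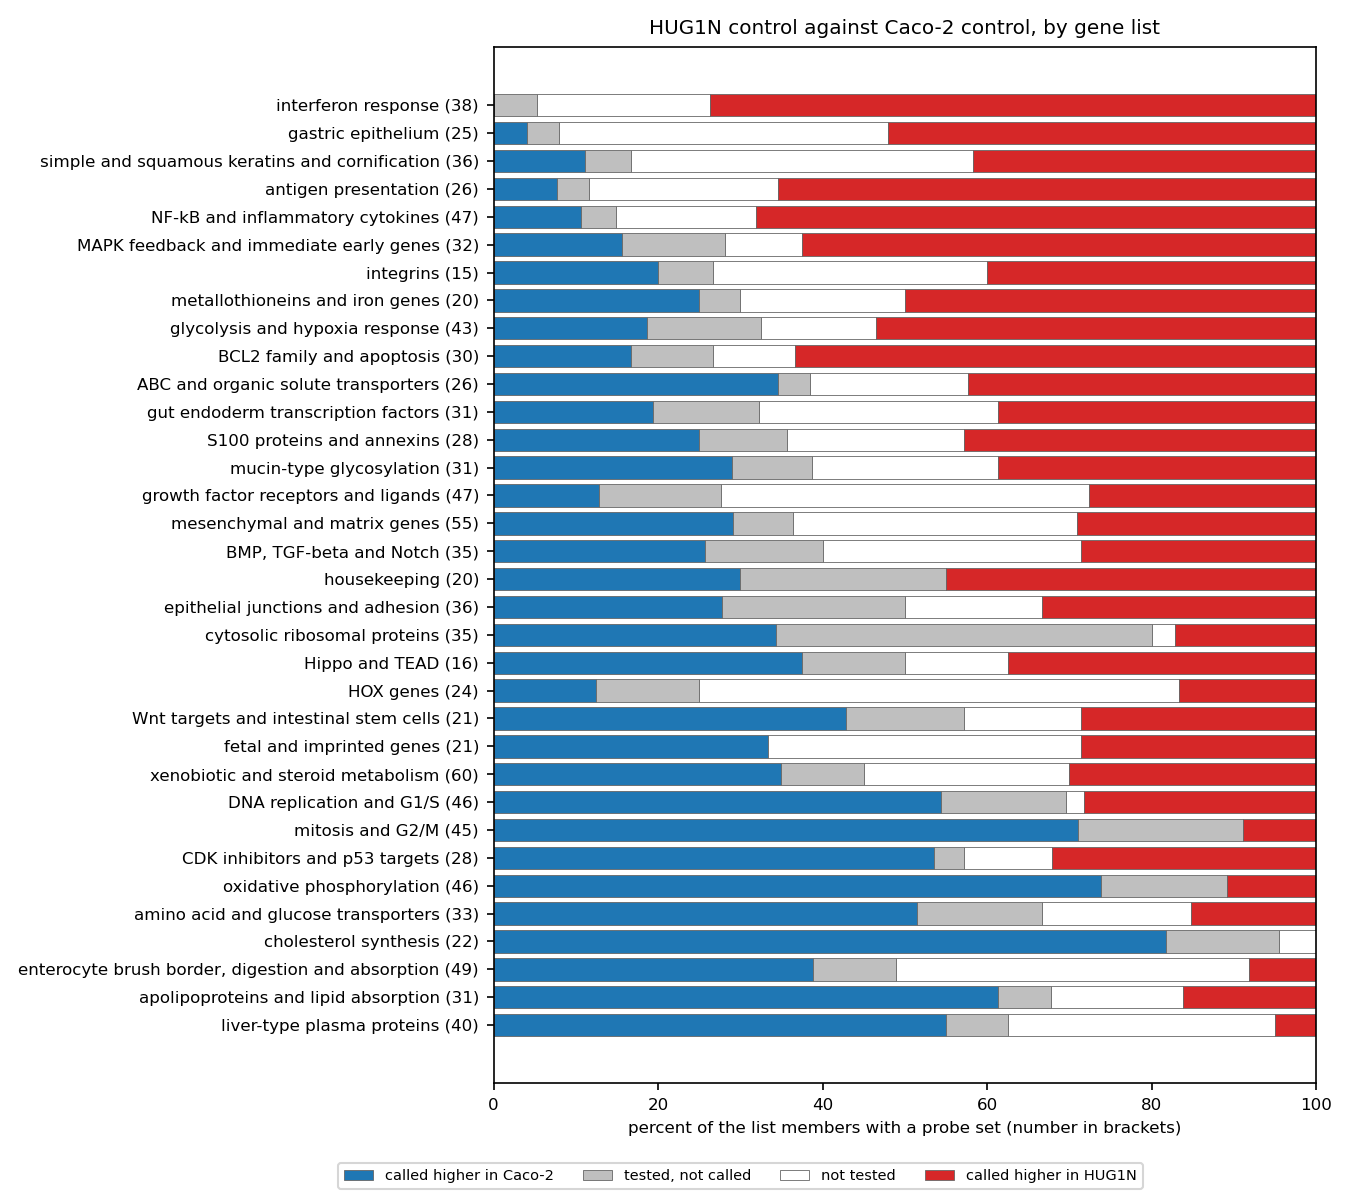
Percent of the members with a probe set that were called higher in Caco-2 (blue), tested and not called (grey), not tested (white) or called higher in HUG1N (red), for the gene lists with at least 10 tested members, ordered by median difference. Interferon, gastric and keratin lists are at the top, and plasma protein, apolipoprotein and enterocyte lists at the bottom. Over all 11963 genes with a probe set, 3176 were called higher in Caco-2 and 2856 higher in HUG1N. The shares of 41.3% and 37.1% are of the 7696 tested genes, so the bars, which include members not tested, cannot be set against them.

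Interferon response genes were higher in HUG1N almost throughout. Of 38 with a probe set, 30 were tested, 28 higher in HUG1N, 0 higher in Caco-2 by limma (0 also at an unadjusted p under 0.05) and 2 not called, with a median difference of 3.56 against a background of 37.1% of genes higher in HUG1N. In Caco-2, 7 of the 30 did not exceed log2 4 in a control array. GBP2, a guanylate-binding protein, was 3.94 and 4.21 in Caco-2 and 10.66 and 10.42 in HUG1N, a difference of 6.47 (SE 0.27, limma adjusted p = 2.07e-06), and GBP1 was 2.13 and 2.13 against 8.30 and 8.25 (at least 19.4-fold). IFIT1, which binds viral RNA caps, was 2.94 and 3.20 in Caco-2 and 9.35 and 9.14 in HUG1N (at least 37.9-fold), and MX1, a dynamin-like antiviral protein, was 2.35 and 2.35 against 8.03 and 7.96 (at least 15.9-fold). IFITM3, which blocks viral entry, was 6.04 and 6.04 against 11.55 and 11.56 (45.6-fold). The cytosolic sensor IFIH1 was 8.15 and 8.07 in Caco-2 and 8.11 and 8.14 in HUG1N and was not called (95% interval of the difference -0.19 to 0.22), and RSAD2 was not called either (0.23). BST2, at 0.62, lost its call without Caco-2 control array 1 (adjusted p = 0.0958) or HUG1N control array 2 (adjusted p = 0.0825).

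Antigen presentation genes were also higher in HUG1N, 17 of 20 tested against 2 higher in Caco-2, with a median difference of 2.65. PSMB9, an immunoproteasome subunit, was 2.79 and 3.13 in Caco-2 and 11.10 and 11.16 in HUG1N (at least 140-fold), and PSMB8 was 5.97 and 6.73 against 12.41 and 12.34 (65.1-fold). The peptide transporter subunits TAP1, at 4.16 and 5.57 against 11.25 and 11.18 (81.5-fold; the difference of 6.35 was 5.64 without Caco-2 control array 1 and 7.05 without array 2), and TAP2 (at least 30.5-fold) were higher as well. HLA-DMA, a class II peptide exchanger, was 3.19 and 3.19 in Caco-2 and 9.81 and 9.47 in HUG1N. B2M, the class I light chain, was 14.21 and 14.26 against 15.21 and 15.22 (1.97-fold). ERAP1, a peptidase that trims peptides, was higher in Caco-2 at 11.49 and 11.43 against 8.14 and 7.79 (11.2-fold), and so was the class II invariant chain CD74 (1.97-fold). The HLA-B, -C, -E, -F and -G probe sets differed by 2.14 to 3.76 in favour of HUG1N, but these genes are alike enough that signal between them cannot be told apart.

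NF-kB and inflammatory genes leaned to HUG1N, 32 of 39 tested against 5 higher in Caco-2, with a median difference of 2.04. LCN2, an iron-binding protein induced by inflammation, was the largest difference of all in favour of HUG1N, at 3.52 and 3.17 in Caco-2 and 14.48 and 14.54 in HUG1N, a difference of 11.16 (SE 0.12, limma adjusted p = 1.24e-08) and at least 1455-fold. IL1B was 2.17 and 2.17 in Caco-2 and 9.29 and 9.13 in HUG1N (at least 37-fold), its antagonist IL1RN was 2.08 and 2.08 against 10.81 and 10.63 (at least 105-fold), and TNF was 2.14 and 2.14 against 8.77 and 8.72 (at least 26.7-fold). LTB, lymphotoxin beta, was 107-fold higher in HUG1N. The 5 members higher in Caco-2 included receptors: TLR2 was 6.45 and 6.30 in Caco-2 and 2.08 and 2.08 in HUG1N (at least 5.2-fold higher in Caco-2), and IL1R1, at 8.01 and 8.04 against 5.19 and 2.97 (15.4-fold; the difference of -3.95 became -5.06 without HUG1N control array 1 and -2.84 without array 2), and the decoy IL1R2 (7.68-fold) were higher in Caco-2, with IL18 (4.02-fold) and CXCL10 (4.17-fold). The factor gene NFKB1 was 8.46 and 8.35 against 8.29 and 8.39 and was not called.

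Promoters are shown for 3 genes of the interferon and antigen lists and 3 of the NF-kB list because their letters match the known response elements. In the first 3, capitals mark the interferon-stimulated response element, searched as GAAA, any 2 bases and GAAA, or its reverse complement. IFIT1 lies on the plus strand at chr10:89392463-89392622, GBP1 on the minus strand at chr1:89065209-89065368 and TAP1 on the minus strand at chr6:32853705-32853864.
IFIT1: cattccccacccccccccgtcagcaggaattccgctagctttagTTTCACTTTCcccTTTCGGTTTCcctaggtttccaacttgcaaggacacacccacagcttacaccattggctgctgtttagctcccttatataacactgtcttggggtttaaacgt
GBP1: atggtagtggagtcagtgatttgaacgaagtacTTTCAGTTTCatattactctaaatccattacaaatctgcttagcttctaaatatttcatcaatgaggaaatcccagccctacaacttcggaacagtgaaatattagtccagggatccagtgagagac
TAP1: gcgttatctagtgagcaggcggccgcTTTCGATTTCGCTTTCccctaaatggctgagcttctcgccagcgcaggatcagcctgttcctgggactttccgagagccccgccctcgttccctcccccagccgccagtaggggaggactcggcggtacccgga
IFIT1 and TAP1 held 2 matches each, which overlap in TAP1. Of 25 tested interferon response genes with a promoter, 16 held these letters within 250 bases (64.0%), as did 6 of 18 antigen presentation genes (33.3%), against 3.07% of all promoters and 2.53% of those of tested genes. IFIH1, which was not called between the lines, was 1 of the 16.

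In the other 3, capitals mark the NF-kB site, searched as GGGA, any 1 base and TTTCC, or its reverse complement. LTB lies on the minus strand at chr6:31582426-31582585, CXCL5 on the minus strand at chr4:73998678-73998837 and TNFAIP3 on the plus strand at chr6:137867099-137867258. CXCL5, a neutrophil chemokine, was 7.21 and 7.01 in Caco-2 and 13.69 and 13.57 in HUG1N, and TNFAIP3, a feedback inhibitor of NF-kB, was 8.99 and 9.004 against 12.06 and 12.10.
LTB: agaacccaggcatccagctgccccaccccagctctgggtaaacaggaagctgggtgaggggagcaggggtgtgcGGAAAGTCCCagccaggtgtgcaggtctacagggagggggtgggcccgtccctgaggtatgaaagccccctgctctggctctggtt
CXCL5: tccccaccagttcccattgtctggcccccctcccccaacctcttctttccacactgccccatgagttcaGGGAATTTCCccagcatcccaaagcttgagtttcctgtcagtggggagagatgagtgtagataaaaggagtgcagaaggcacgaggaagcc
TNFAIP3: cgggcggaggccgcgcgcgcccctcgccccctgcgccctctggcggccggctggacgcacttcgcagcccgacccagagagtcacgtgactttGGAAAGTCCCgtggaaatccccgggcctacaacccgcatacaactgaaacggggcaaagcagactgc
These letters were in 10 of 31 NF-kB list promoters (32.3%), against 0.546% of all promoters and 0.656% of those of tested genes. These shares describe the lists and are no test of a factor.

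Keratin and cornification genes were higher in HUG1N, 15 of 21 tested against 4 higher in Caco-2, with a median difference of 2.83. The simple epithelial keratin KRT18 was 14.50 and 14.59 in Caco-2 and 15.14 and 15.15 in HUG1N (1.51-fold), and KRT19 was not called (difference -0.23, limma adjusted p = 0.0547), so the common keratins differed little. Larger differences were in proteases and inhibitors known from squamous epithelia. KLK10, a kallikrein, was 2.27 and 2.27 in Caco-2 and 11.01 and 11.05 in HUG1N (at least 130-fold), KLK6 at least 31-fold and KLK7 at least 31.7-fold. SERPINB5, also called maspin, was 2.08 and 2.59 against 9.51 and 9.57 (at least 46.6-fold), and CSTA, cystatin A, was at least 69.5-fold higher in HUG1N. KRT20, the keratin of differentiated gut, was 6.89 and 6.78 in Caco-2 and 4.97 and 3.66 in HUG1N (5.73-fold higher in Caco-2; the difference of -2.52 was -3.18 without HUG1N control array 1 and -1.86 without array 2), and TGM2 was 3.45-fold higher in Caco-2.

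Among S100 proteins and annexins, 12 of 22 tested were higher in HUG1N and 7 in Caco-2. ANXA1, a phospholipid-binding protein of inflamed epithelia, was 4.41 and 3.06 in Caco-2 and 13.62 and 13.86 in HUG1N, a difference of 10.001 (SE 0.41, limma adjusted p = 2.05e-06) that was 10.68 without Caco-2 control array 1 and 9.33 without array 2. S100P was 10.25 and 10.21 against 15.24 and 15.18 (31.5-fold), S100A4 10.7-fold and S100A2 at least 36.3-fold higher in HUG1N. ANXA13, an intestine annexin, was 9.61 and 9.94 in Caco-2 and 3.16 and 3.17 in HUG1N (at least 54.7-fold higher in Caco-2), as were S100A9 (12-fold) and S100A10 (2.69-fold).

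Junction genes were near balance, 12 of 30 tested higher in HUG1N and 10 in Caco-2, with a median difference of 0.05. CDH1, the epithelial cadherin, was 14.03 and 14.07 in Caco-2 and 12.62 and 12.33 in HUG1N (2.97-fold higher in Caco-2), while CTNNB1 and CTNNA1, its catenin partners, were not called (-0.06 and -0.05). The gap junction genes GJA1, at 9.16 and 9.23 against 2.10 and 2.08 (at least 36.6-fold), and GJB1 (30.1-fold; the difference of -4.91 was -4.13 without HUG1N control array 1 and -5.70 without array 2) were higher in Caco-2, as was the claudin CLDN1 (17.3-fold). TSPAN1 (at least 65.7-fold), CLDN3 (5.1-fold), and the epithelial regulators GRHL2 (3.95-fold) and ESRP1 (3.05-fold) were higher in HUG1N.

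Matrix and mesenchymal genes split evenly, 16 of 36 tested each way. FN1, fibronectin, was 14.69 and 14.59 in Caco-2 and 2.35 and 2.43 in HUG1N, a difference of -12.25 (SE 0.13, limma adjusted p = 1.2e-08) and at least 1596-fold. TGFBI (at least 319-fold), the collagen chain COL5A2 (at least 250-fold), caldesmon CALD1 (at least 170-fold) and the protease inhibitor TIMP3, at 11.32 and 11.38 against 2.09 and 2.09, were also higher in Caco-2. IGFBP3, an IGF carrier, was 2.09 and 2.08 in Caco-2 and 13.18 and 13.12 in HUG1N (at least 568-fold), TIMP1 was 2.15 and 2.08 against 9.85 and 10.19 (at least 64.9-fold), and TWIST1, a mesenchymal factor, was 3.44 and 3.14 against 10.48 and 10.02 (at least 76-fold). The tissue inhibitors TIMP1 and TIMP3 thus lay on opposite sides. The urokinase receptor PLAUR (49.1-fold) and TPM2 (51.1-fold) were higher in HUG1N. Of 10 integrin genes tested, 6 were higher in HUG1N and 3 in Caco-2, with ITGB4 at 6.03 and 6.53 against 10.06 and 9.98 (13.4-fold), its partner ITGA6 3.81-fold and ITGA2 2.87-fold higher in HUG1N.

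Growth factor genes were higher in HUG1N for 13 of 26 tested and in Caco-2 for 6. The EGF receptor ligands split by gene: TGFA was 2.54 and 2.08 in Caco-2 and 9.10 and 9.47 in HUG1N (at least 39-fold), HBEGF was 5.19-fold higher in HUG1N, and EREG was 10.37 and 10.07 in Caco-2 and 3.19 and 3.63 in HUG1N (at least 74.7-fold higher in Caco-2). ERBB3 was 11.87 and 11.89 against 11.95 and 11.85 and was not called. FGFR3 (16.1-fold) and FGFR4 (11.1-fold) were higher in Caco-2, FGFR2 was not called (-0.14), and the ephrin receptors EPHA1 (5.09-fold, Caco-2) and EPHA2 (8.61-fold, HUG1N) lay on opposite sides. GDF15, a stress cytokine, was 11.03 and 10.98 in Caco-2 and 15.002 and 14.97 in HUG1N (15.7-fold).

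Feedback and immediate early genes of the MAPK pathway were higher in HUG1N for 20 of 29 tested and in Caco-2 for 5, with a median difference of 1.48. DUSP4, a phosphatase that acts on ERK, was 3.03 and 3.13 in Caco-2 and 11.43 and 11.43 in HUG1N (at least 172-fold; limma adjusted p = 7.08e-09), DUSP5 was 6.72 and 6.78 against 12.53 and 12.45 (53.2-fold), and IER3 was 9.59 and 9.79 against 15.38 and 15.46 (52.9-fold). FOS, at 3.30 and 4.33 against 9.96 and 10.26, and FOSL1 (at least 28.1-fold) were higher in HUG1N. SPRY2, an inhibitor of receptor signalling, was 3.03-fold and ETV4 2.07-fold higher in Caco-2.

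In the BMP, TGF-beta and Notch list, 10 of 24 tested were higher in HUG1N and 9 in Caco-2. ID2, a BMP target, was 13.33 and 13.34 in Caco-2 and 9.03 and 9.07 in HUG1N (19.6-fold higher in Caco-2), whereas ID1 was 3.22-fold higher in HUG1N. The pseudoreceptor BAMBI was 6.52 and 6.17 against 9.66 and 9.61 (9.78-fold higher in HUG1N), HEY1, a Notch target, at least 10.9-fold higher in HUG1N, and HES1 was not called (0.26). In the Hippo and TEAD list, 6 of 14 tested were higher each way, and the Caco-2 count fell to 3 without HUG1N control array 2. CCN2, a YAP target, was 8.73 and 8.81 in Caco-2 and 2.08 and 2.52 in HUG1N (at least 27.2-fold higher in Caco-2), VGLL1, a TEAD partner, was 2.81 and 2.54 against 9.77 and 9.70 (at least 53.2-fold higher in HUG1N), and YAP1 itself was not called (-0.14).

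Metabolic lists leaned to different lines. Cholesterol and lipid synthesis genes were higher in Caco-2 for 18 of 21 tested, and 0 were called higher in HUG1N by limma (0 also at an unadjusted p under 0.05), with a median difference of -1.57. IDI1, an isomerase of the pathway, was 12.53 and 12.59 in Caco-2 and 10.11 and 10.06 in HUG1N (5.55-fold; limma adjusted p = 3.24e-07), LSS was 6.65-fold, DHCR7 5.19-fold, SC5D 5.88-fold and TM7SF2 7.67-fold higher in Caco-2, and NSDHL was not called (-0.11). Of 46 oxidative phosphorylation genes, 34 were higher in Caco-2 and 5 in HUG1N, with a median of -0.81, or 16 and 0 where a 2-fold minimum was tested. The ATP synthase subunit ATP5F1A was 14.80 and 14.80 in Caco-2 and 12.75 and 12.79 in HUG1N (4.09-fold), and NDUFA9 of complex I was 4.86-fold higher in Caco-2, while COX6C was 1.59-fold higher in HUG1N.

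Glycolysis and hypoxia genes were higher in HUG1N for 23 of 37 tested and in Caco-2 for 8, with a median difference of 1.09. ENO2, an enolase, was 2.51 and 2.44 in Caco-2 and 10.31 and 10.14 in HUG1N (at least 74.6-fold), HK1, a hexokinase, was 5.42 and 5.20 against 11.48 and 11.20 (65.2-fold), and NDRG1, a hypoxia-responsive gene, was 9.02 and 9.12 against 14.09 and 14.12 (32.8-fold). The oxygen sensor EGLN3 was at least 14.6-fold and DDIT4 21.5-fold higher in HUG1N. LDHB (2.71-fold), LDHA (1.6-fold), the glucose transporter SLC2A1 (3.21-fold) and PCK1, a gluconeogenic enzyme (at least 3.87-fold), were higher in Caco-2. GAPDH was 15.58 and 15.58 against 15.54 and 15.55 and was not called.

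Transporters for amino acids and sugars were higher in Caco-2 for 17 of 27 tested and in HUG1N for 5, with a median difference of -1.23. SLC2A3, a high-affinity glucose transporter, was 12.71 and 12.78 in Caco-2 and 3.47 and 3.82 in HUG1N (at least 428-fold), and SLC7A9, the cystine carrier of absorptive epithelia, was at least 53.1-fold higher in Caco-2. SLC6A8, the creatine transporter, was 6.002 and 5.29 against 12.91 and 12.90 (154-fold), SLC2A10 at least 44.5-fold and SLC7A11, the cystine-glutamate exchanger, 11.6-fold higher in HUG1N. Among ABC and organic solute transporters, 11 of 21 tested were higher in HUG1N and 9 in Caco-2: ABCC2, an apical conjugate pump of liver and gut, was 9.87 and 9.86 in Caco-2 and 2.19 and 2.14 in HUG1N (at least 58.3-fold), ABCA1 at least 66.6-fold higher in Caco-2, and ABCG1 at least 22-fold higher in HUG1N. SLCO2B1 (at least 142-fold, Caco-2) and SLCO1B3 (at least 28.7-fold, HUG1N) lay on opposite sides.

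Xenobiotic and steroid genes were higher in HUG1N for 18 of 45 tested and in Caco-2 for 21. HSD3B1 (at least 50.2-fold), HSD17B2, at 10.19 and 10.19 against 4.10 and 4.67, and the sulfotransferase SULT2A1, at 10.86 and 10.64 against 3.55 and 3.92, were higher in Caco-2. ALDH1A3, which makes retinoic acid, was 3.56 and 3.25 in Caco-2 and 12.60 and 12.51 in HUG1N (at least 377-fold), CYP1B1 was 259-fold, CYP3A5 41.2-fold and GCLM, a glutathione synthesis subunit, 11.3-fold higher in HUG1N. Of 16 metallothionein and iron genes tested, 10 were higher in HUG1N and 5 in Caco-2. MT1E was 3.40 and 2.28 against 11.003 and 10.82, MT1X 34.7-fold and MT2A 15.1-fold higher in HUG1N, but metallothionein genes are near-identical and their signals cannot be told apart. The light ferritin chain FTL was not called (0.06). Mucin-type glycosylation genes were higher in HUG1N for 12 of 24 tested and in Caco-2 for 9. GCNT3, which builds mucin core structures, was 5.68 and 5.67 in Caco-2 and 12.20 and 12.15 in HUG1N (90.1-fold), the Lewis fucosyltransferases FUT3 (at least 24.9-fold) and FUT6 (at least 12.7-fold), which are closely related, were higher in HUG1N, and the sialyltransferase ST6GAL1 was 11.06 and 11.13 against 2.34 and 2.52 (at least 136-fold higher in Caco-2).

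Proliferation genes leaned to Caco-2 in the control arrays. Of 45 mitosis genes, 32 were higher in Caco-2 and 4 in HUG1N, with a median difference of -0.64, or 12 and 1 where a 2-fold minimum was tested. MKI67, the Ki-67 antigen, was 11.59 and 11.62 in Caco-2 and 9.62 and 9.54 in HUG1N (4.07-fold; limma adjusted p = 1.94e-06), the mitotic factor FOXM1 was 5.51-fold, CCNA2 3.97-fold and ASPM 4.72-fold higher in Caco-2. The other MKI67 probe sets, all dimmer, differed less in the same direction, by -1.70, -0.72 and -0.66. CDC25B (2.67-fold) and NDC80 (2.01-fold) were higher in HUG1N. Of 45 replication genes, 25 were higher in Caco-2 and 13 in HUG1N, the latter count falling to 5 without Caco-2 control array 2 and to 6 without HUG1N control array 2. E2F8 was 10.67 and 10.58 in Caco-2 and 6.92 and 7.13 in HUG1N (12.1-fold), GINS2 9.67-fold and MCM10 4.39-fold higher in Caco-2, and the cyclin CCNE2 3.62-fold higher in HUG1N. In the arrays labelled shRNA the lean of the replication list was gone, with 17 higher in Caco-2, 16 in HUG1N and a median difference of 0.06. The mitosis list kept its lean there, with 33 higher in Caco-2 and 5 in HUG1N.

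Cell cycle inhibitors differed by gene. CDKN1A, which encodes p21, was 6.69 and 6.40 in Caco-2 and 11.51 and 11.28 in HUG1N (28.8-fold higher in HUG1N; limma adjusted p = 3.08e-07), and CDKN2A, which encodes p16, was 8.88 and 8.82 against 3.58 and 3.50 (at least 28.8-fold higher in Caco-2). The D cyclins CCND2 (at least 111-fold, Caco-2) and CCND3 (7.43-fold, HUG1N) lay on opposite sides. Over the list of 25 tested inhibitors and p53 targets, 9 were higher in HUG1N and 15 in Caco-2. FAS, the death receptor, was 2.14 and 2.17 in Caco-2 and 9.21 and 9.08 in HUG1N (at least 35.4-fold), and PMAIP1 13.7-fold higher in HUG1N, whereas TP53I3 (31.9-fold) and TIGAR (7.69-fold) were higher in Caco-2. Of 27 apoptosis genes tested, 19 were higher in HUG1N and 5 in Caco-2: BAK1 was 5.67 and 5.67 against 8.35 and 8.57 (6.9-fold higher in HUG1N), BAX 8.47 and 8.79 against 6.59 and 6.65 (4.03-fold higher in Caco-2), CASP1 at least 19.9-fold higher in HUG1N and CASP6 10.2-fold higher in Caco-2. Another CASP6 probe set was 9.93 and 9.71 in Caco-2 and 8.74 and 8.12 in HUG1N, a smaller difference of -1.39 in the same direction. BCL2L1 was not called (-0.17).

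**Figure D4:**
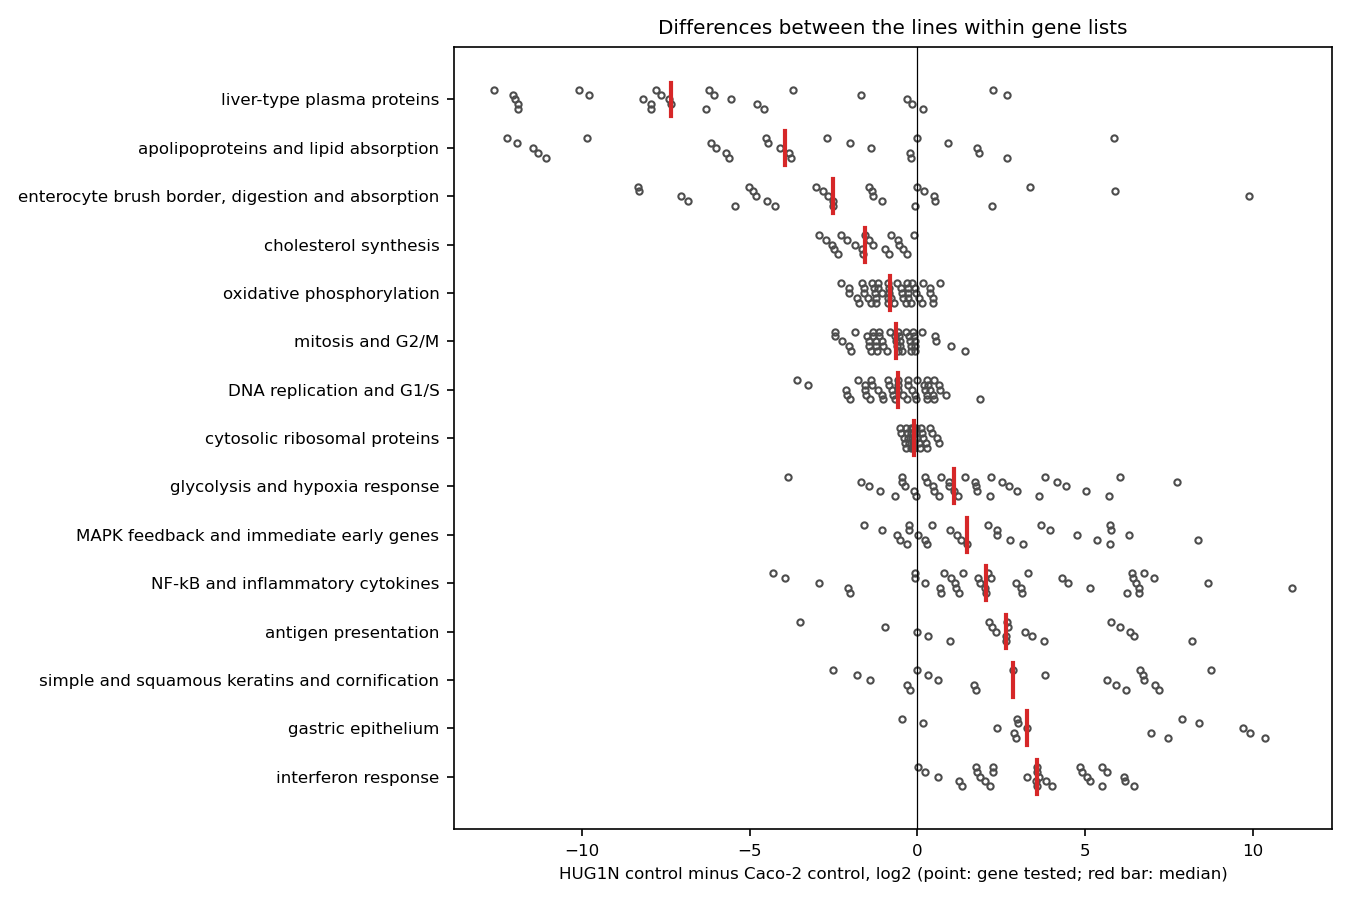
HUG1N control minus Caco-2 control in log2 units (x axis) for each tested member of 15 gene lists, 1 point a gene, with the list median as a red bar. Medians run from -7.33 for plasma proteins to 3.56 for interferon response genes, ribosomal protein genes lie within 1 log2 unit of 0, and most lists span both signs.

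Control lists set the scale of these differences. Of 34 cytosolic ribosomal protein genes tested, 6 were higher in HUG1N and 12 in Caco-2, with a median of -0.11 that turned to 0.02 (10 and 4 called) with median centring. The range ran from -0.51 for RPS3 to 0.66 for RPL8. Of 20 housekeeping genes, 9 were higher in HUG1N and 6 in Caco-2; HPRT1 and TBP were not called (0.11 and 0.03), and YWHAZ was 4.4-fold higher in HUG1N.

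Markers of other cell types were mostly not detected. Of 14 fibroblast markers, 2 exceeded log2 4 in a Caco-2 control array and 3 in a HUG1N control array (COL1A1 and FBLN1 in both, TWIST1 in HUG1N). Of 16 immune cell markers, CD14 and LYN exceeded it in Caco-2 and LYN in HUG1N, of 10 endothelial markers PECAM1 in Caco-2, and of 14 neural markers TUBB3 and UCHL1 in both and ENO2 in HUG1N. The summed linear level of the fibroblast list was 716.0 to 726.4 in Caco-2 and 1145 to 1549 in HUG1N arrays, that of the immune list 365.8 to 378.1 and 2117 to 2163, that of the endothelial list 73.6 to 86.2 and 45.2 to 46.3, and that of the neural list 6295 to 6574 and 4870.0 to 4952. These sums moved with the line, and their part in the results was not tested. The immune sum in HUG1N came almost wholly from LYN, at 8.12 and 8.22 in Caco-2 and 11.004 and 11.04 in HUG1N. No endothelial marker exceeded log2 4 in HUG1N, so that sum adds up undetected genes. The sums are therefore no measure of how many such cells were present. The epithelial genes CDH1 and KRT18 were high in both lines.

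Other genes among the 20 largest differences each way had no list. TSPAN6, a tetraspanin, was 12.54 and 12.54 in Caco-2 and 2.08 and 2.08 in HUG1N (at least 373-fold), the galectin LGALS2 was 12.45 and 12.67 against 2.27 and 3.06 and SPON1 at least 312-fold higher in Caco-2. On the HUG1N side, the potassium channel KCNK1 was 3.13 and 3.13 in Caco-2 and 13.33 and 13.25 in HUG1N (at least 626-fold), and TMC5 (at least 414-fold) and the ubiquitin ligase TRIM31 (at least 475-fold) were also higher. IGFBP1 (at least 255-fold), the peptide NMU (at least 282-fold), MLF1 (at least 218-fold), the choline transporter-like SLC44A4 (at least 259-fold), SH3GL2 (at least 150-fold), VNN1, a pantetheinase (at least 144-fold), the deacetylase HDAC9 (at least 155-fold) and ATP10B (at least 152-fold) followed. FOXF2, a forkhead factor known from gut mesenchyme, was 2.08 and 2.08 in Caco-2 and 11.17 and 11.22 in HUG1N (at least 147-fold).

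The same line difference was then measured in the 4 arrays labelled shRNA, which are separate arrays from the controls. There 5927 of 7696 genes (77.0%) were called, 2783 higher in HUG1N (36.2%) and 3144 higher in Caco-2 (40.9%). Of the 6032 genes called in the controls, 4796 (79.5%) were called the same way, 254 the opposite way and 982 were not called. Of the 3534 called with at least 2-fold, 3183 were called the same way and 36 the opposite way. Across tested genes the differences of the control and shRNA arrays correlated at r = 0.897, where genes are not independent replicates and the arrays share a normalization. In the shRNA arrays the 3′ to 5′ gap of ACTB was 1.65 and 1.46 in Caco-2 and 3.69 and 3.77 in HUG1N, and the mean of the hybridisation controls was 12.30 and 12.50 against 10.87 and 10.93, so these technical values moved with the line more than in the controls. Their part in the results was not tested.

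Most called members of the lineage lists were called the same way in the shRNA arrays. Against 79.5% over all genes called in the controls, 12 of 14 called gastric genes, 19 of 23 enterocyte genes, 23 of 24 plasma protein genes, 25 of 28 interferon genes and 16 of 18 gut transcription factors were called the same way. Most called members of these lists differed at least 2-fold in the controls. Among all genes called with that fold, 3183 of 3534 were called the same way, so the lists do not stand out as more stable. Called the opposite way were the gastric gene FUT2 (from -0.46 to 2.08), the interferon genes BST2 (0.62 to -1.08) and UBE2L6 (1.73 to -0.62), 3 enterocyte genes and 1 gut factor. ALB was 11.11 and 11.05 in Caco-2 and 2.13 and 2.13 in HUG1N arrays labelled shRNA, CTSE 2.99 and 2.84 against 10.28 and 10.13, GATA4 2.97 and 3.06 against 6.39 and 6.35, and CDX2 6.07 and 5.84 against 3.29 and 3.27. The difference itself was also tested, as the line difference in the shRNA arrays minus that in the control arrays, and was called for 3457 of 7696 genes (44.9%), 1707 higher (22.2%) and 1750 lower (22.7%). For TFF2 the lines were further apart: it was 5.95 and 6.51 in Caco-2 and 12.998 and 13.29 in HUG1N shRNA arrays, a change of the line difference of 3.93 (SE 0.28, limma adjusted p = 0.000251). For IFIT1 they were closer, at 8.74 and 8.53 against 10.41 and 10.48, a change of -4.37 (SE 0.18, limma adjusted p = 3.85e-05). LGR5, above log2 4 in Caco-2 control cells, was 3.94 and 3.003 in Caco-2 and 2.24 and 2.30 in HUG1N shRNA arrays, and PGC, above it in HUG1N control cells, was 2.91 and 3.01 against 3.01 and 3.01.

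Some lineage genes changed sides. BTNL8, a gut butyrophilin-like gene, was 9.05 and 8.98 in Caco-2 and 4.38 and 4.66 in HUG1N control arrays, and 3.87 and 3.90 against 4.73 and 4.66 in shRNA arrays, so the difference went from -4.49 to 0.81 (limma adjusted p = 9.15e-06 for the change). KRT20 went from -2.52 to 1.63, with the HUG1N shRNA arrays at 8.76 and 8.33. CEACAM6 went from 2.22 to -1.34, with the Caco-2 shRNA arrays at 13.37 and 13.32. TFF3 went from -0.87 to 1.88, BAMBI from 3.29 to -0.82 and the vitamin D receptor VDR from 0.75 to -0.75, each called in both sets. These genes therefore have no line difference that holds in both sets of arrays.

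**Figure D5:**
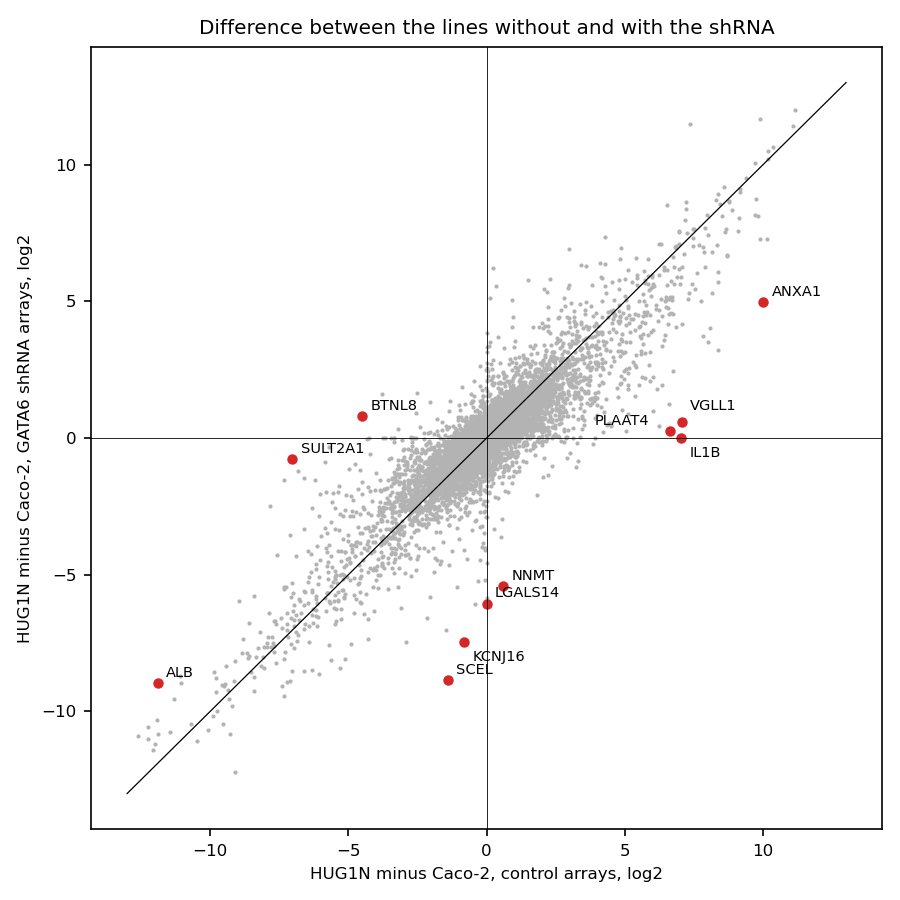
HUG1N minus Caco-2 in log2 units in the control arrays (x axis) and in the arrays labelled shRNA (y axis) for the 7696 tested genes, with the line of equality and named genes in red. Most genes lie along the line; IL1B, PLAAT4 and VGLL1 lie near 0 in the shRNA arrays and near 7 in the controls, and SCEL and KCNJ16 far below 0 in the shRNA arrays alone.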

How the data were processed

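The values are log2 expression values of 22277 probe sets on 8 Affymetrix U133A 2.0 arrays, deposited by the authors in a series matrix and made with GCRMA, per the submitters' processing notes. Its version and any probe filter are unstated. GCRMA subtracts a background modelled from probe sequence, so low values pile up near 1 floor, and it normalizes all arrays together, which would hide a shift of total RNA. Of the probe sets, 19070 had 1 gene symbol in the platform annotation, 1043 had several and 2164 had none; only the first were used, and 19058 matched the RefSeq table of GRCh38.p14. The 4 groups of 2 arrays came from the sample titles. Each of 11963 genes was represented by its brightest probe set over the 8 arrays. The 7696 genes over log2 4 in at least 2 arrays were tested by limma (version 3.58.1, R version 4.3.3; lmFit with a mean for each of 4 groups, eBayes, Benjamini-Hochberg adjustment over all tested genes, call at 0.05), with 4 residual degrees of freedom. The number of arrays limits the precision. The gene comparison, the gene lists and the promoter motifs were chosen with earlier results of these data known, so no list carries a test of its own. Named genes are the 20 largest called differences each way, every member of the gut factor, gastric, enterocyte, secretory and HOX lists, of each other list up to 5 called members each way with the largest difference and up to 3 members over log2 8 in all control arrays with the smallest, and the 8 largest changes of the line difference. RSAD2, UBE2L6, HLA and the promoter examples CXCL5 and TNFAIP3 were named after their values were seen. Promoter letters come from RefSeq promoters, 250 bases before each start. As a check of the code, the model was also run on simulated data with known changes in a small share of genes. In these data most tested genes were called, so that run does not give the error rate here. Alternatives were other scalings, filters, floors, probe set rules, a 2-fold minimum, a replicate block and each array left out.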

Additional observations from a re-analysis of the deposited data

Results flagged for a closer look

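The line difference in the arrays labelled shRNA differed from that in the control arrays, by limma's test of the difference itself, for 3457 of 7696 genes (44.9%). The 8 genes singled out had the largest such changes of the line difference, given here as shRNA minus control in log2 units. SCEL, a cornified envelope protein, changed by -7.44: its shRNA arrays were 10.92 and 10.99 in Caco-2 and 2.13 and 2.08 in HUG1N. IL1B changed by -7.04, with all shRNA arrays of both lines at 2.17. The potassium channel KCNJ16 changed by -6.64, with shRNA arrays at 9.57 and 9.49 in Caco-2 and at 2.08 in HUG1N. VGLL1 changed by -6.48 and PLAAT4, a phospholipase-related gene, by -6.38, each with similar values in the shRNA arrays of the lines (10.60 and 10.68 against 11.24 and 11.20 for VGLL1, and 9.14 and 9.13 against 9.33 and 9.44 for PLAAT4). SULT2A1 changed by 6.24, with shRNA arrays at 5.42 and 3.97 in Caco-2 and 3.92 in HUG1N. The galectin LGALS14 changed by -6.05 and NNMT, nicotinamide N-methyltransferase, by -6.03. In the shRNA arrays the ACTB 3′ to 5′ gap and the hybridisation controls differed between the lines more than in the controls, and their part in these changes was not tested.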

How the results depend on the processing

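The count of 6032 genes called between the control lines was within 1.5 times under every alternative run but 1. Tested against a 2-fold minimum, 2746 genes were called in the controls (1356 higher in HUG1N, 1390 higher in Caco-2), 2373 in the shRNA arrays (1142 and 1231), and 414 for the change of the line difference (157 and 257). Leaving out each array in turn gave 5574 to 6046 calls in the controls, 5499 to 5891 in the shRNA arrays and 2640 to 3151 for the change. With the replicate number as a block the counts were 5975, 5873 and 3240. Samples with the same number did not deviate together (correlations from -0.063 to 0.066), so no pairing by number was seen. The labels do not say whether the numbers pair the samples, and these correlations cannot exclude it. GATA6 ran from -0.14 to 0.05 when an array was left out and was 0.09 with median centring, with no call. Of values for 471 named genes under 20 alternatives, 9089 kept their side of the threshold (those not called may change sign, as GATA6 did), 246 lost the call, 52 gained it and 1 reversed: RFC5, at 0.66 by its brightest probe set and -0.39 by the mean of its probe sets. Of 1600 list counts, 50 moved by over 1.5 times. With 2 arrays a group, small differences and the levels of genes near the lowest value remain uncertain.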
